A study of Homo sapiens with 6 samples.

Results

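The zinc finger genes of chromosome 19p12 form a cluster that expanded in primates, and 34 of them were followed here by name, all of which are listed among the 47470 genes of the count files. They were taken from a fixed list of symbols, and the rule uses no measured value. In the RefSeq annotation of GRCh38.p14 they run from the start of ZNF506, chr19:19792711, to the end of ZNF254, chr19:24129968, with 18 genes on the plus strand and 16 on the minus strand. The other 443 symbols made of ZNF and a number served as the comparison. RNA was sequenced from wild-type HEK293T cells (an established human line of embryonic kidney origin, with the large T antigen of SV40), either untreated or kept for 1 day in 1 mM valproic acid (VPA), a branched fatty acid that inhibits histone deacetylases. There were 3 libraries in each group. Nothing in the labels says that the libraries came from separate cultures, so the p-values measure the spread between these libraries, which may be technical.

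KRAB zinc finger proteins join an array of C2H2 zinc fingers, which read DNA, to a KRAB domain, which recruits the corepressor TRIM28 (KAP1). TRIM28 in turn brings in the H3K9 methyltransferase SETDB1, HP1 proteins and the NuRD complex with its histone deacetylases, and many of these zinc finger proteins silence retrotransposons in this way. Among the 19p12 genes, ZNF91 is known for repressing SVA elements and ZNF93 for repressing LINE-1 elements. The genes of the cluster arose by repeated duplication, and the bodies of many of them are packed in H3K9-methylated chromatin.

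The members differ in their finger arrays, among other features. Translated from the canonical GENCODE 44 transcripts, they held between 5 C2H2 fingers in ZNF738 and 36 in ZNF208, with a median of 13, and ZNF729 and ZNF91 had 34 and 31. The core pattern of the KRAB A box was found in 26 of the 34. The duplications are plain in the promoters, for which RefSeq gave 27 entries covering 26 members, each with 250 bases before and 50 bases after the transcription start. Aligned with its closest relative in the cluster, each promoter was between 73.1% and 91.2% identical, with a median of 87.6%, and 25 of the 27 were over 80%. Shown here, from RefSeq on GRCh38.p14, are a pair of well-counted neighbours and 2 pairs in which a counted gene stands beside a nearly silent relative. They are ZNF714 and ZNF431 (273 of 300 aligned bases identical, 91.0%), ZNF91 and ZNF208 (262 of 293, 89.4%), and ZNF66 and ZNF486 (263 of 299, 88.0%). Each is written 5′ to 3′ along the gene, and capitals mark 3 motifs in either orientation, the GC box GGGCGG, the NF-Y letters CCAAT, and the letters CCGGAAG of an ETS-type motif.
ZNF714, chr19:21081953-21082252, plus strand: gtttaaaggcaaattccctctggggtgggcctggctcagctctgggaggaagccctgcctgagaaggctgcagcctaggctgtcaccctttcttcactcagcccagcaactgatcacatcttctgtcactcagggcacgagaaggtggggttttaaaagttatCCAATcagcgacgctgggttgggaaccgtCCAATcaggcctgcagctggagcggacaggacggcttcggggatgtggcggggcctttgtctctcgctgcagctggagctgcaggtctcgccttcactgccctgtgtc
ZNF431, chr19:21141790-21142089, plus strand: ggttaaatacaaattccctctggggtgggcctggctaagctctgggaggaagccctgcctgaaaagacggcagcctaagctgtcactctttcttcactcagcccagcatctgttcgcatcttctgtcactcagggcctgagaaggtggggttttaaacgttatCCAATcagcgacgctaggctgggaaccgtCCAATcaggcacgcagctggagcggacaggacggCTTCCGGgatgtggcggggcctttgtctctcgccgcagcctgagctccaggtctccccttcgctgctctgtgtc
ZNF91, chr19:23395422-23395721, minus strand: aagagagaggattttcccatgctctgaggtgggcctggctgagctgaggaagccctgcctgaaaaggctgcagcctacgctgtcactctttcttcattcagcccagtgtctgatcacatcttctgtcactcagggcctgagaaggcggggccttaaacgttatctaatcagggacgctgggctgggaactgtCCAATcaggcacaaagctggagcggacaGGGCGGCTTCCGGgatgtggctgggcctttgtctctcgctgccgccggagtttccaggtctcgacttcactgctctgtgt
ZNF208, chr19:22010894-22011193, minus strand: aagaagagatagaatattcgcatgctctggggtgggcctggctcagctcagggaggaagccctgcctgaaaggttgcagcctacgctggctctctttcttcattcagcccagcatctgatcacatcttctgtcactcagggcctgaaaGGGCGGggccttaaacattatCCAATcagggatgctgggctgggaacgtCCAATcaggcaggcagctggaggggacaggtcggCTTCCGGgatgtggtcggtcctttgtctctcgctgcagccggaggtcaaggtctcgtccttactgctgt
ZNF66, chr19:20776054-20776353, plus strand: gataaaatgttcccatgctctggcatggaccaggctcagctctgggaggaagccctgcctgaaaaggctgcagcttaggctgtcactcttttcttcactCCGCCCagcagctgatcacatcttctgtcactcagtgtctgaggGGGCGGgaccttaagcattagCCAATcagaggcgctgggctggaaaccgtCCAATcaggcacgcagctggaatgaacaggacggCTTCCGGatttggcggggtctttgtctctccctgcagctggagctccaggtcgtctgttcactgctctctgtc
ZNF486, chr19:20166964-20167263, plus strand: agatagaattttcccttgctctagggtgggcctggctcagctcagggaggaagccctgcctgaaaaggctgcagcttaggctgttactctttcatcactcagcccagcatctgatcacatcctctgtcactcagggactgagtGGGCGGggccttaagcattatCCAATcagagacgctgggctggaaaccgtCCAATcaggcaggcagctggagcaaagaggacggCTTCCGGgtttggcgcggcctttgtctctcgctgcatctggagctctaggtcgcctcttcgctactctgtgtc

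The motifs were searched as these exact letters on both strands, and no member promoter held overlapping matches. CCAAT stood in 26 of the 27 member promoters (96.3%), against 41.9% of the 492 promoters of other ZNF genes and 34.6% of all 35116 promoters. CCGGAAG stood in 21 (77.8%), against 33.1% and 10.3%. GGGCGG stood in 20 (74.1%), against 61.8% and 45.0%. TATAAA was found in 3 member promoters (11.1%, against 3.86% of other ZNF promoters and 11.5% of all), and GCGCATGC, an NRF1-type motif, in none, against 4.67% and 3.05%. The 300-base promoters of the members held a median of 10 CpG dinucleotides, with a range from 8 to 16, whereas the median was 22 for other ZNF genes and 14 for all promoters. The CpG median was 10 both for the 19 entries of members counted well enough to be tested and for the 8 entries of members that were not. ZNF714, the member with the most counts, carried neither the GC box nor the ETS-type motif in its window, while ZNF208 and ZNF486, with few counts, carried all 3 of the motifs shown in capitals.

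Between 18622267 and 18828495 counts fell on genes in each library, of which the 34 members together received between 2651 and 2992. HEK293T markers were counted in every library (8 of 8, among them KRT18 and the neurofilament gene NEFM). Of these 8, 6 were higher and 2 lower after VPA at an adjusted p under 0.05 by edgeR, against 32.9% and 30.0% of all tested genes. Their summed normalized level was 19300 to 19900 in untreated and 22300 to 23600 in VPA-treated cells. Markers of other cell types were low in the untreated cells: the summed normalized level was 15.5 to 26.2 for 3 blood genes, 0 to 4.19 for 3 endothelial genes and 0 to 4.20 for 3 liver genes, with PTPRC, CD3E and CDH5 at 0. They stood at 27.9 to 38.3, 17.2 to 24.1 and 2.87 to 8.62 in VPA-treated cells. The 3 fibroblast genes (COL1A1, LUM and DCN) all rose, from a sum of 430 to 482 to one of 1490 to 1660, and the part of any such shift in the results below was not tested. In bulk RNA, fewer cells that express a gene cannot be told apart from less RNA per cell.

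Exons of 9 members (ZNF506, ZNF253, ZNF93, ZNF90, ZNF429, ZNF100, ZNF208, ZNF492 and ZNF726) overlap a gene on the opposite strand, and since it is not known whether the counting used strand, their values carry that limit.

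The 34 genes fell into a counted and a nearly silent set. Of the members, 20 passed the filter on low counts (a minimum of 10) and were tested with edgeR's quasi-likelihood test, 13 had between 1 and 19 reads over all 6 libraries, and ZNF730 was at 0 in every library. The normalized counts given below were scaled by TMM to a library of mean size. Per kilobase of exon, ZNF714 had the highest level in untreated cells, at 61.9 normalized counts per kilobase. ZNF708, ZNF724, ZNF100, ZNF254 and ZNF738 followed between 33.6 and 39.1 per kilobase, and ZNF430, ZNF431 and ZNF675 between 18.0 and 23.4. The SVA repressor ZNF91 was at 8.07 per kilobase, and the lowest of the tested members were ZNF506 and ZNF682 at 1.46 and 1.47. At the start of the cluster, from ZNF506 to ZNF626, tested and untested members were mixed. Beyond ZNF626, counted and silent genes lay in stretches along the chromosome. From ZNF66 to ZNF100 all 10 consecutive members were tested, from ZNF43 to ZNF730 only ZNF492 among 10 was, and from ZNF724 to ZNF254, the member nearest the centromere, all 6 were.

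**Figure D1:**
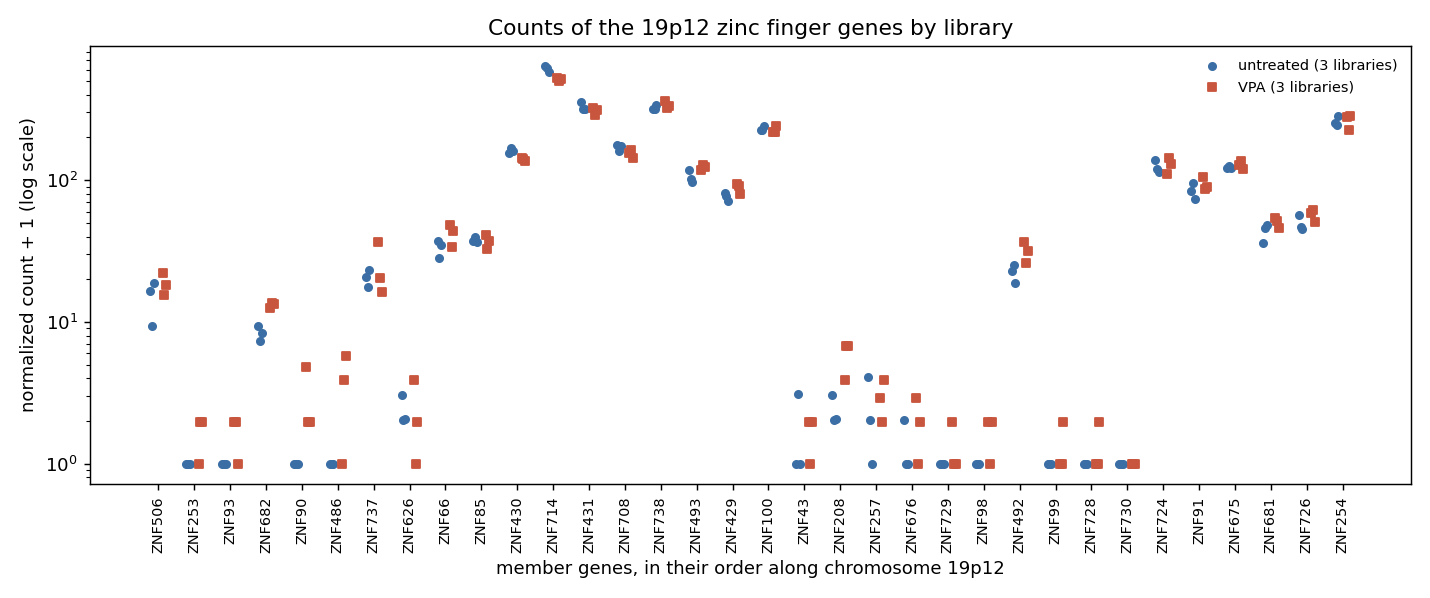
Normalized count plus 1 (log axis) of each of the 34 members in the 3 untreated (circles) and 3 VPA-treated (squares) libraries, with the genes in their order along the chromosome. ZNF714 is highest, at 573.2 to 638.8 in untreated and 500.9 to 528.0 in VPA-treated libraries, and the members from ZNF43 to ZNF730, apart from ZNF492, lie close to 0 counts.

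Whether VPA changed the expression of the cluster was then examined. No tested member rose and 1 fell at an adjusted p under 0.05 by edgeR's quasi-likelihood test with Benjamini-Hochberg adjustment, whereas 32.9% of all 15298 tested genes were called higher and 30.0% lower. The count depended on the scaling, with 6 members higher and 0 lower when libraries were scaled by their totals and 13 and 0 with the ribosomal protein genes as the reference, where 43.9% and 60.5% of all tested genes were higher. With the study's fold change threshold added, of 1 or more in size on the log2 scale, 0 of the 20 members passed in either direction, against 12% of all genes up and 0.503% down. At an unadjusted p under 0.05, 1 member was higher (ZNF492) and 1 lower (ZNF714). DESeq2 called 0 higher and 1 lower after adjustment, and 0 and 1 at an unadjusted p under 0.05. Of the 376 other ZNF genes tested, 72 (19.1%) were higher and 78 (20.7%) lower, and 6 passed both thresholds upwards.

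ZNF714, on the plus strand and without a KRAB A-box core in its canonical protein, was the gene that fell. Its normalized counts were 638.8, 616.5 and 573.2 without treatment and 528.0, 500.9 and 515.1 after VPA. Every VPA-treated library lay below every untreated one, and 31.0% of all tested genes had this order. The mean was 609 ± 33.4 before and 515 ± 13.6 after treatment (SD, n = 3 each), which is -0.24 on the log2 scale (SE 0.061), with an adjusted p of 0.00147 by edgeR. The call held without any 1 of the 6 libraries (-0.29 to -0.22). It was lost when libraries were scaled by their totals (-0.11, adjusted p = 0.124 by edgeR), and with the ribosomal protein genes as the reference the value was 0.03. A pseudogene on the same strand, VN1R81P, overlaps its exons and shares sequence with 3.15% of its 100-base windows. Reads that fall in both can be set aside if the annotation used for counting holds both.

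The remaining 19 tested members did not pass the test. ZNF430, next to ZNF714, had 153.2, 167.5 and 158.5 normalized counts in untreated and 141.8, 140.6 and 135.0 in VPA-treated libraries. The groups did not overlap, but the log2 fold change of -0.20 (SE 0.098) had an adjusted p of 0.0829 by edgeR. ZNF431, ZNF708, ZNF100 and ZNF85 also had values below 0, of -0.10, -0.15, -0.02 and -0.03. Of these, ZNF430 and ZNF708 stood above 0 only with the ribosomal protein reference (0.07 and 0.12), ZNF431 also with library totals (0.03), and ZNF100 and ZNF85 with upper quartile scaling too (0.04 both).

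The other 14 tested members had values above 0. ZNF492 had 21.74, 24.08 and 17.85 normalized counts in untreated and 35.46, 25.05 and 30.64 in VPA-treated libraries. All VPA-treated libraries were above the untreated ones, an order seen in 34.8% of all tested genes, by a log2 fold change of 0.52 (SE 0.23, adjusted p = 0.0543 by edgeR). It passed the test without VPA replicate 2 (0.64, adjusted p = 0.0344 by edgeR), and also with upper quartile scaling (0.58), library totals (0.65) and the ribosomal protein reference (0.79, adjusted p = 0.0324, 0.0195 and 0.0049 by edgeR). ZNF492 shares 18.7% of its 100-base windows with ZNF98, the adjacent member, so that reads of the copied sequence could be set aside or split between them.

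ZNF682 had 8.282, 6.281 and 7.348 normalized counts in untreated and 11.50, 12.52 and 12.45 in VPA-treated libraries. The groups again did not overlap, and this was the largest log2 fold change among the tested members, 0.73 (SE 0.36, 95% interval from -0.02 to 1.47), with an adjusted p of 0.0840 by edgeR. ZNF682 had 8, 6 and 7 reads in untreated libraries, under the filter's minimum of 10, and 12, 13 and 13 after VPA. It thus passed the filter only through the group where it was high. Such a filter favours a rise without overlap. ZNF493 had 116.0, 101.5 and 95.53 in untreated and 116.0, 127.2 and 123.5 in VPA-treated libraries. Its ranges met at their ends, and its log2 fold change of 0.23 (SE 0.11, adjusted p = 0.0896 by edgeR) passed the test without untreated replicate 1 (0.30, adjusted p = 0.0436 by edgeR). It also passed under the same 3 scalings, at 0.29, 0.36 and 0.50 (adjusted p = 0.0325, 0.0115 and 0.000823 by edgeR).

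ZNF91, the SVA repressor, stood at 83.2 ± 10.9 normalized counts before and 92.8 ± 9.45 after VPA (SD, n = 3 per group), a difference of 0.16 on the log2 scale (SE 0.13). ZNF675, known as an inhibitor of TRAF6 signalling, had 122 ± 2.71 and 127 ± 8.10, a difference of 0.06 (SE 0.11). Neither passed the test (adjusted p = 0.316 and 0.668 by edgeR). The other 9 members above 0 were ZNF66 (0.34), ZNF506 (0.34), ZNF737 (0.26), ZNF681 (0.21), ZNF429 (0.20), ZNF726 (0.20), ZNF738 (0.07), ZNF724 (0.04) and ZNF254 (0.01, but below 0 with DESeq2 and its size factors). ZNF737 was below 0 without VPA replicate 1, in which it stood at 35.46 against 19.27 and 15.32 in the other VPA-treated libraries. ZNF724 and ZNF738 share 51.5% and 24.1% of their 100-base windows with unnamed genes, which overlap their exons on the same strand. Whether reads there were set aside depends on the annotation used for counting, which is not given.

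**Figure D2:**
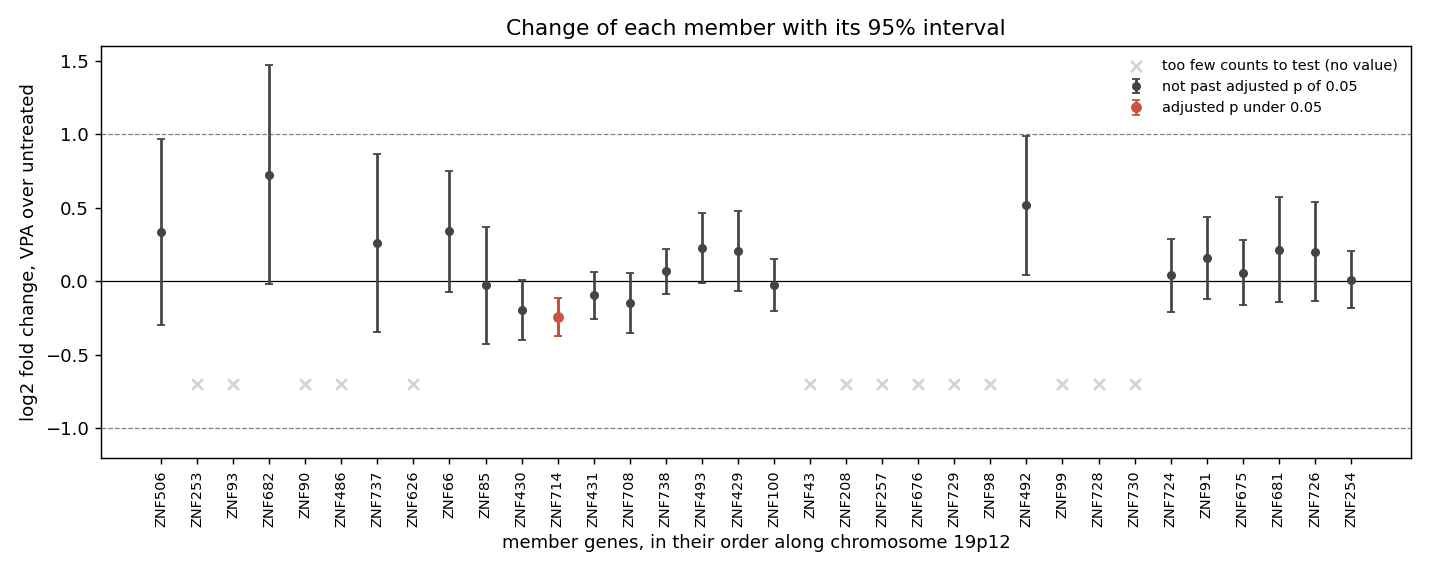
Log2 fold change (VPA over untreated) of the 20 tested members with 95% intervals, in their order along the chromosome. Crosses mark the 14 members with too few counts and carry no value, and dashed lines stand at -1 and 1. ZNF714 alone passes the test, and 19 of the 20 intervals lie between the dashed lines.

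The intervals give the size of change that these data allow for the counted members under TMM scaling. They carry no uncertainty of the scaling. Library totals moved the median over all tested genes by 0.13, and the ribosomal protein reference by 0.27. For 19 of the 20 the 95% interval lay between -1 and 1 on the log2 scale, the exception being ZNF682, and for 13 it lay between -0.5 and 0.5. The interval held 0 for 18 members. A log2 fold change under 0.5 in size was found for 18 of the 20 (90.0%), 349 of the other ZNF genes (92.8%) and 11251 of all tested genes (73.5%).

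The signs of the values were grouped along the chromosome. ZNF85, ZNF430, ZNF714, ZNF431 and ZNF708, which follow each other directly, were all below 0, and ZNF100 was the other member below 0. This order was noticed after the values were seen, and no test was made of it. The closest relatives by promoter did not always share the sign. ZNF714 and ZNF431, printed above, had -0.24 and -0.10, whereas ZNF708 (-0.15) was closest to ZNF429 (0.20), at 91.2% identity. ZNF431 was the closest relative of ZNF430 (-0.20) but also of ZNF493 (0.23) and ZNF681 (0.21).

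The median log2 fold change of the 20 tested members was 0.11, beside 0.01 over all tested genes and 0.00 over the other ZNF genes. With library totals the median of all tested genes moved by 0.13 and with the ribosomal protein genes by 0.27, and the member medians were then 0.24 and 0.38. The members were split by mean normalized count. The 7 members under 50 had a median of 0.34, the 24 other ZNF genes in this class 0.27 and all 3102 genes 0.39. Among the 7, ZNF682 passed the filter only through its VPA-treated libraries, and ZNF506 had 8 reads, under the minimum of 10, in untreated replicate 2. Of those 24 other ZNF genes 8 were higher, of all 3102 genes 1269 were, and of the 7 members none was. The 8 members between 50 and 200 had a median of 0.11 (other ZNF genes 0.05, all genes 0.34), and the 5 with 200 or more a median of -0.02 (other ZNF genes -0.04, all genes -0.08). In each class the members' median thus lay closer to that of the other ZNF genes than to that of all genes, except in the class under 50, where it lay between them.

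Each member was also set beside the 20 other tested ZNF genes nearest to it in mean count. The median over members of the difference between a member and the median of its 20 was 0.04, and 11 of the 20 members lay above. Against the mean of the untreated libraries this difference was 0.12 in VPA replicate 1 but -0.06 in both replicate 2 and replicate 3. Among the alternatives it was below 0 with 10 nearest genes (-0.01), with genes of at least 50 counts (-0.01) and without untreated replicate 2, untreated replicate 3 or VPA replicate 1 (-0.04 to -0.01). Single members ranged from -0.27 for ZNF430 to 0.44 for ZNF682, which passed the filter only through its VPA-treated libraries. The sign of the difference between the cluster and zinc finger genes of like level thus varied with the library and the setting.

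**Figure D3:**
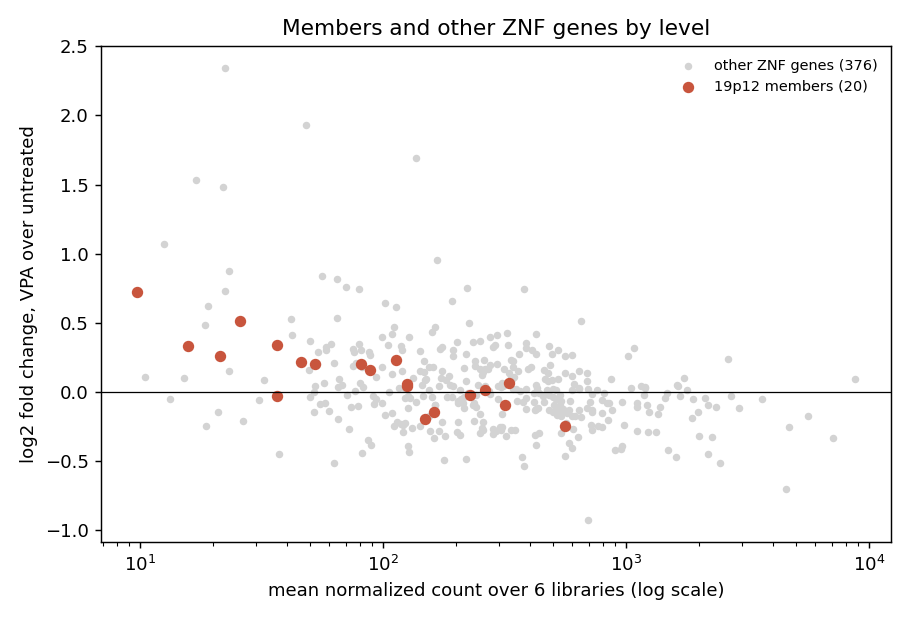
Log2 fold change against mean normalized count over the 6 libraries (log axis) for the 20 tested members and the 376 other tested ZNF genes, 1 point per gene. The members lie within the cloud of the other genes, and no member reaches 1, while 6 other ZNF genes do.

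The place of the other ZNF genes was compared as well. On the short arm of chromosome 19 before the cluster, 6 of 34 tested genes were higher and 7 lower (median 0.03), and on the long arm 25 of 139 were higher and 19 lower (median 0.02). Off chromosome 19, 41 of 203 were higher and 52 lower (median -0.03), and all 6 genes that passed both thresholds upwards (ZNF467, ZNF365, ZNF469, ZNF843, ZNF648 and ZNF860) lay there. Between the first and the last member 54 other genes are listed, of which 42 were at 0 in all libraries and 2 were tested. RPSA2 fell by 0.33 on the log2 scale (adjusted p = 0.00116 by edgeR), with means of 670 ± 92.5 and 533 ± 9.89 (SD, n = 3 per group), and IPO5P1 had a value of 0.10 (adjusted p = 0.192 by edgeR).

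The members that were too low to test had more reads after VPA. The 14 genes together had 8, 5 and 2 reads in untreated and 18, 13 and 22 in VPA-treated libraries, which are sums of 15 and 53 at nearly equal depth. All VPA-treated libraries were above all untreated ones. The summed reads after VPA were 3.53 times those in untreated cells, beside 1.34 times over the other untested ZNF genes and 1.49 times over all untested genes. Of the 13 members with a read, 8 had reads only in VPA-treated libraries (61.5%) and 0 only in untreated ones. The share with reads only after VPA was 33.3% among the 36 other ZNF genes of this kind and 26.8% among all 11055 untested genes with a read. More reads after VPA were found for 11 of the 13 members (84.6%), against 75.0% and 63.5%. The sets were not matched by read number, since the 36 other ZNF genes had sums of 176 and 235 reads. A gene with 1 or 2 reads easily has them in only 1 group, so these shares are not compared at like counts.

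ZNF208, with the longest finger array of the cluster, had 2, 1 and 1 reads in untreated and 3, 6 and 6 in VPA-treated libraries. The groups did not overlap, and the ratio of the normalized rates was 3.45 (95% exact interval 1.10 to 14.3, counting error only). It shares 26.0% of its 100-base windows with an unnamed gene, which overlaps its exons on the same strand. ZNF486 had 0 reads in each untreated library and 0, 3 and 5 in the VPA-treated libraries. Against a floor of 3 reads over the untreated group, the ratio of normalized rates was 2.45. The reads after VPA were taken as exact for this ratio, so it is not a lower bound on the rise. ZNF90 had 0 in each untreated library and 4, 1 and 1 after VPA, a ratio of 1.84 by the same floor, with the same limit. The reads of ZNF486 came from VPA replicates 2 and 3 and most of those of ZNF90 from replicate 1, so the genes did not move together by library. Without VPA replicate 3 only 3 reads of ZNF486 remained, and without VPA replicate 1 only 2 of ZNF90, which is no more than the floor.

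Without the filter on low counts, ZNF486 and ZNF90 were called higher past both thresholds (adjusted p = 0.0170 and 0.0485 by edgeR), as were 9.56% of the 26353 genes then tested, and ZNF208 was not (adjusted p = 0.0751 by edgeR). DESeq2 gave no adjusted p for ZNF486 and ZNF90 and 0.204 for ZNF208. ZNF257 and ZNF626 had 4 reads each in untreated cells and 6 and 4 in VPA-treated cells. ZNF43 had 2 and 2, and ZNF676 1 and 3. ZNF253, ZNF93 and ZNF98 had 0 and 2, and ZNF99, ZNF728 and ZNF729 0 and 1. At these counts a difference was not detectable, which includes the LINE-1 repressor ZNF93.

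The number of members with at least 1 read was 24, 24 and 22 in untreated and 29, 26 and 31 in VPA-treated libraries. The total of the cluster was nearly the same, at 2890, 2775 and 2784 normalized counts in untreated and 2867, 2697 and 2772 in VPA-treated libraries, with overlapping groups. As CPM of the counts on genes, however, it was 148.8, 140.8 and 141.2 against 160.0, 150.4 and 155.0, so that the groups were apart. Whether the total of the cluster differed thus depended on the scaling.

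The genes through which KRAB proteins repress were measured in the same libraries. Of 20 genes of the corepressor complex and HP1, 19 were tested, of which 3 were higher (15.8%), 14 lower (73.7%) and 2 did not pass, against 32.9% and 30.0% of all genes. Among all 9761 genes with 200 or more counts, 4137 were lower. The list had a median log2 fold change of -0.23 beside 0.01 over all genes, and with ribosomal protein scaling 8 of its genes were higher and 7 lower. None passed a log2 fold change of 1 in size. The scaffold TRIM28 had 18710, 17720 and 17110 normalized counts in untreated and 12940, 11860 and 11510 in VPA-treated libraries. All VPA-treated libraries were lower, with a log2 fold change of -0.56 (SE 0.048, adjusted p = 1.51e-09 by edgeR). The NuRD subunits CHD3, a remodelling ATPase, and MBD3 fell by 0.64 and 0.78 on the log2 scale, and CBX5, which encodes HP1 alpha, fell by 0.60 (adjusted p = 4.76e-12, 1.30e-08 and 3.98e-10 by edgeR). Of the higher genes, the SETDB1 partner ATF7IP had a log2 fold change of 0.19, CBX1, which encodes HP1 beta, 0.13, and ATF7IP2 0.30. ATF7IP2 lost its call without untreated replicate 3 (0.14) or any VPA-treated library, and CBX1 without VPA replicate 3 (0.11). ATF7IP2 also lost it with DESeq2 size factors and without the filter (adjusted p = 0.0547 and 0.0608 by edgeR), and both lost it with DESeq2 (adjusted p = 0.227 for ATF7IP2 and 0.0519 for CBX1). RBBP7, on chromosome X, is listed at 0, as are all genes of that chromosome.

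The HUSH complex and its partners silence retrotransposons together with SETDB1. Over all genes 32.9% were higher and 30.0% lower. Of the 9761 genes with 200 or more counts, however, 2480 were higher and 4137 lower, and all 6 genes of the HUSH list were at that level. Of these 6, 2 were higher (33.3%), 2 lower (33.3%) and 2 did not pass. With ribosomal protein scaling 4 were higher and 1 lower. The H3K9 methyltransferase SETDB1 stood at 2330 ± 106 normalized counts before and 1750 ± 17.4 after VPA (SD, n = 3 per group) and fell by 0.42 (adjusted p = 5.11e-08 by edgeR). PPHLN1, a HUSH subunit, fell by 0.20, although it lost its call with library totals (-0.07, adjusted p = 0.146 by edgeR) and its value was 0.07 with ribosomal protein scaling. ATF7IP is on this list as well, and TASOR, the HUSH scaffold, had a log2 fold change of 0.13, which did not pass without untreated replicate 2 or VPA replicate 2 (0.11 in both), nor with DESeq2 (adjusted p = 0.0699).

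The 13 tested genes of the H3K9 and DNA methylation list, except SETDB2, also had means above 200 counts. At that level 2480 of the 9761 genes were higher and 4137 lower, against 32.9% and 30.0% of all genes. Among the 13 genes, 2 were higher (15.4%), 8 lower (61.5%) and 3 did not pass, with a median of -0.21. With ribosomal protein scaling 5 were higher and 1 lower. The lower genes include UHRF1, TRIM24 and TRIM33 (-0.22, -0.16 and -0.21), which are on the list but are not methyltransferases or demethylases. The demethylase KDM4A fell by 0.41, and the methyltransferases EHMT2 (G9a) and EHMT1 (GLP) fell by 0.35 and 0.25. The maintenance DNA methyltransferase DNMT1 fell by 0.24, while the de novo enzymes DNMT3B and DNMT3A rose by 0.40 and 0.24 on the log2 scale. Under that scaling the values of DNMT1 and EHMT1 were 0.03 and 0.02, and EHMT2 lost its call (-0.08, adjusted p = 0.122 by edgeR).

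**Figure D4:**
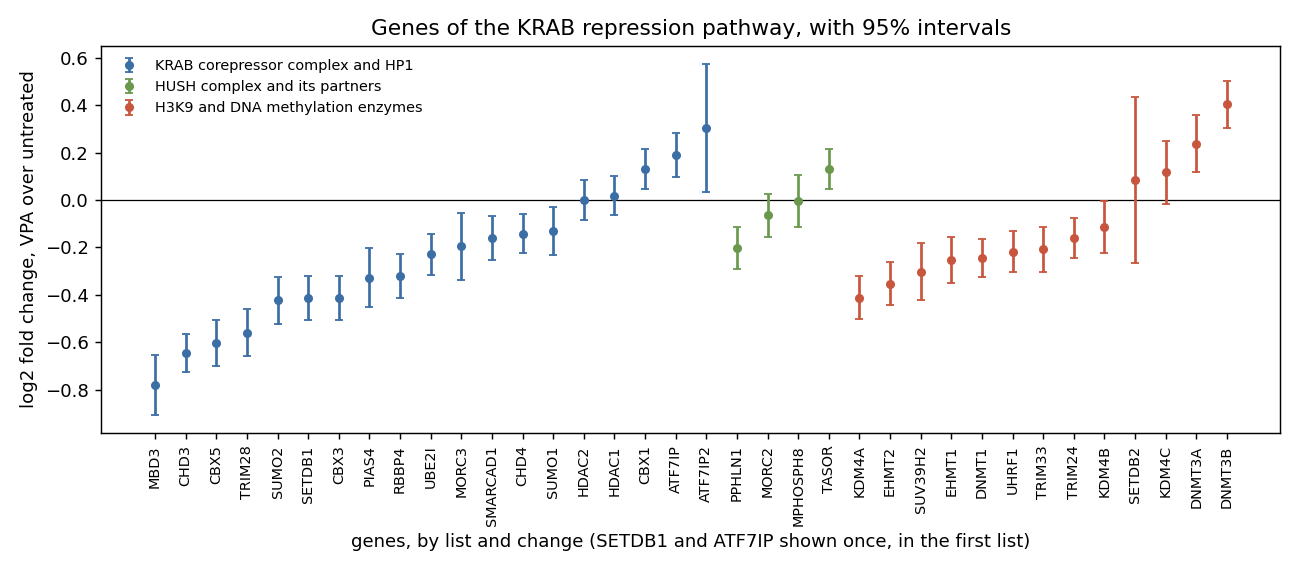
Log2 fold change (VPA over untreated) with 95% intervals for the tested genes of the corepressor and HP1 list, the HUSH list and the H3K9 and DNA methylation list, ordered by value within each list. MBD3 is lowest at -0.78 and DNMT3B highest at 0.40.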

How the data were processed

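Gene counts of the 6 RNA-seq libraries were used as the authors deposited them: raw whole-number counts per gene, without normalization. Per the submitters' processing notes and the study's methods, reads were cleaned with SOAPnuke, aligned to hg38 with STAR (2.7.10b in the notes) and counted with htseq-count (HTSeq 2.0.1 in the notes). Which annotation was used, and whether the counting used strand, is not given in the sources used here. Multi-mapping reads were not assigned to genes, so near-identical copies have too few counts. The 5 lines without a gene were dropped (reads off any gene 6.80% to 7.69%).

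The whole table was fitted with edgeR 4.0.16 (R 4.3.3), using TMM, filterByExpr with a minimum of 10, a robust quasi-likelihood fit, a prior count of 0.125 and treatment as the only term. P-values were adjusted by Benjamini-Hochberg over the 15298 tested genes. Standard errors and intervals were derived from the p-values. In simulated counts of this comparison, 200 of 200 changed genes were called, and 10 of 14965 unchanged ones. The planted changes were at least 1 in size on the log2 scale, in genes with a mean of at least 50, and all genes shared the same dispersion. The simulation thus does not show how often smaller changes or genes of fewer counts would be called. With 18622267 to 18828495 counts per library, a gene of few counts has a wide interval, and counting intervals cover counting error only. DESeq2 1.42.0, other scalings, filters, a replicate block and leaving out each library were the alternatives.

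Coordinates and promoters are from RefSeq (GRCh38.p14), and transcripts from GENCODE 44, from which fingers were counted in place of the planned RefSeq proteins. Shared sequence was measured in 100-base windows. The members, lists and tests were chosen with earlier results of these data known. Values by library were planned for called members (at most 8 in each direction) and the member with the most counts. Those of ZNF430, ZNF492, ZNF682, ZNF493, ZNF208, ZNF486 and ZNF90 were added after their values were seen. The same holds for the VPA-treated values of ZNF737 and the read count of ZNF506 in untreated replicate 2. Up to 4 genes in each direction were named per pathway list, and UHRF1, TRIM24, TRIM33 and SETDB2 were named in addition to describe the methylation list.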

Additional observations from a re-analysis of the deposited data

How the results depend on the processing

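ZNF714 was called lower under the DESeq2 test, DESeq2 size factors, upper quartile scaling, both filters, the replicate block and without any 1 library. The other scalings shift all genes together, by construction. Members called higher numbered 2 with upper quartile, 6 with library totals, 13 with ribosomal protein genes and 2 without the filter (the latter 2 also past both thresholds), and 0 to 1 when 1 library was left out. With these 3 scalings 38.0%, 43.9% and 60.5% of all tested genes were called higher, and without the filter 20.7%. Members called lower numbered 0 with library totals and 0 with ribosomal protein genes. The member median was 0.177, 0.243 and 0.383 under the 3 scalings and 0.205 without the filter. The share of higher genes among all calls was 52.3% with TMM and 63.0%, 73.9% and 91.5% with these scalings.

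With library totals, 5 corepressor genes were higher, 1 HUSH gene was lower and 5 genes of the methylation list were lower. With ribosomal protein genes, 8 corepressor genes were higher and 7 lower, 4 HUSH genes higher and 1 lower, and 5 genes of the methylation list higher and 1 lower. DESeq2 called 1 corepressor gene and 1 HUSH gene higher, and the cause was not tested. Leaving out 1 library gave 1 to 3 higher corepressor genes and 1 to 2 higher HUSH genes.

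Values that changed sign with ribosomal protein genes were ZNF714 0.0268, ZNF430 0.0721, ZNF708 0.122, ZNF431 0.174, ZNF100 0.247, ZNF85 0.241, PPHLN1 0.0677, DNMT1 0.0276 and EHMT1 0.0174. With library totals they were ZNF431 0.0343, ZNF100 0.107 and ZNF85 0.102, and with upper quartile ZNF100 0.0411 and ZNF85 0.036. ZNF100 was 0.00984 among genes of at least 50 counts. ZNF254 was -0.00294 with DESeq2 size factors, -0.014 with DESeq2 and -0.0107 without the filter. Leaving out 1 library gave ranges across 0 for ZNF737 (-0.172 to 0.487), ZNF724 (-0.0533 to 0.136), ZNF100 (-0.0756 to 0.00617), ZNF85 (-0.114 to 0.0537) and ZNF254 (-0.044 to 0.105). None of these passed the test, save ZNF100 with ribosomal protein genes.

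The replicate block gave 0 members higher and 1 lower, as without it, and changed no call of the genes named. It gave 9 lower genes of the methylation list against 8 without it. Over all tested genes it gave 5357 higher and 5100 lower, against 5037 and 4591 without it. Same-numbered libraries deviated together with correlations of 0.20, 0.039 and 0.13 over all tested genes (0.348, 0.101 and 0.262 over genes with a mean of at least 50). The labels give replicate numbers but no pairs, so the main fit did not take the numbers as pairs. Every library correlated best with its own number, which is a hint from the data and not from the design. At these depths, no change can be read gene by gene for most of the 14 members under the filter.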
